A study of Mus musculus with 9 samples.

Results

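Serpins are protein inhibitors that trap their target protease in a covalent complex, and the 5 mouse serpins considered here, Serpina3f, Serpina3g, Serpinb6a, Serpinb6b and Serpinb9, act inside the cell. They were taken by gene symbol from a list, and 4 of the 5 have a row among the 12474 rows that all 9 libraries share; Serpina3g has no row and is not analysed here. All 4 passed the filter on low values. The list and the gene lists used beside it were drawn up with earlier results of these data known.

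A serpin offers its target protease a reactive loop as bait, and the cut loop folds into the body of the inhibitor and drags the distorted protease along. Clade B serpins have no signal peptide and stay in the cytosol and nucleus, where they meet granule proteases that leak or are delivered into the cell. Serpina3g, also called Spi2A, and its close relative Serpina3f belong to clade A, most members of which are secreted, but both lack a signal peptide, and Serpina3g is known in mouse cells to block lysosomal cathepsins that reach the cytosol. In macrophages such inhibitors are known as guards against the cell's own lysosomal and granule proteases.

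Poly(A) RNA was sequenced from RAW264.7 cells, a mouse macrophage-like line labelled WT, in 3 groups of 3 libraries. I cells were polarized with 100 ng/ml LPS plus 50 ng/ml mIFNγ (mouse interferon gamma) while potassium iodide was present at 20 mM. M1 cells received LPS and mIFNγ at the same doses without the salt, and the unpolarized cells are labelled Mock. The series asks what iodide does to gene expression during M1 polarization, but no other salt was added to any group, so iodide, potassium and the extra osmotic load cannot be told apart. Nothing in the labels tells whether libraries of the same group are separate cultures, so a p-value here reflects only how far these libraries scatter, which may be technical scatter.

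Library totals were 18370400 to 21202240 fragments in I, 17765680 to 21867430 in M1 and 17431070 to 25470730 in Mock, and Pearson's r across genes was 0.9968 to 0.9973 between replicates. All 12 macrophage markers looked for had a row, with a summed level of 3107 to 3271 FPKM in I, 4087 to 4241 in M1 and 5121 to 5189 in Mock; of these Mertk was below the filter. Of the markers of other cell types, 1 of 12 for T and NK cells had a row (Lck, 3.29 to 5.26 FPKM), 1 of 5 for B cells (Pax5, at most 0.0533 FPKM), 1 of 9 for neutrophils and mast cells (Prtn3, at most 0.0662 FPKM), and 0 for fibroblasts, epithelium and hepatocytes. No row in these files has a 0 in any library, so a marker or serpin without a row is not analysed here. In bulk RNA, fewer cells carrying a transcript and less transcript per cell cannot be told apart.

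The sequences just upstream of the annotated starts are shown because the inducing agents, LPS and interferon gamma, act through factors with known DNA motifs. The windows are the 250 bases before each RefSeq start in GRCm38.p6. Both strands were searched for a gamma-activated site, TTCNNNGAA, for an interferon-stimulated response element (GAAA, any 2 bases, GAAA), for an NF-kB site and for an AP-1 site, TGANTCA. Capitals mark the matches. In Serpina3f, on the plus strand at chr12:104214294-104214543, they mark a gamma-activated site from −121 to −113 relative to the start. In Serpinb9, on the plus strand at chr13:33004291-33004540, they mark an interferon-stimulated response element from −46 to −37. The RefSeq start of Serpinb9 lies inside the longer GENCODE gene, and no annotated exon lies in the window. The stretch of Serpinb6a, on the minus strand at chr13:34002856-34002885, holds an interferon-stimulated response element from −84 to −75 and a gamma-activated site from −77 to −69, which overlap each other. It is cut to 30 bases because its window overlaps an exon of Ripk1 on the other strand.
Serpina3f: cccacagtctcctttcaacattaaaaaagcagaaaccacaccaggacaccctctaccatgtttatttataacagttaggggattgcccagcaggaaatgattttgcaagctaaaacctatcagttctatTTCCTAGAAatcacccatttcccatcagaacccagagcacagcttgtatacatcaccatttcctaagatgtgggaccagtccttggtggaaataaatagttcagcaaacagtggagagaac
Serpinb9: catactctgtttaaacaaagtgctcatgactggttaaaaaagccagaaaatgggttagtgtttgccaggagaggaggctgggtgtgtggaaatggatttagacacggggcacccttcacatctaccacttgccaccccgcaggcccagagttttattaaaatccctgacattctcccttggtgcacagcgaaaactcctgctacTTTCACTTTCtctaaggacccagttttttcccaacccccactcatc
Serpinb6a: ccgcgctTTTCGATTTCCGGGAAcgtttga

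Across 32536 distinct RefSeq windows of the same length, 7.04% hold the gamma-activated site, 2.98% the interferon-stimulated response element, 7.28% the NF-kB site and 6.73% the AP-1 site. The window before the other annotated start of Serpina3f overlaps the one shown and holds the same match, the window before the other start of Serpinb6a holds none of the 4 motifs, and neither does that of Serpinb6b. No window of the 4 serpins holds an NF-kB or AP-1 site. The share of all windows with any of the 4 motifs was not computed. These are matches of letters only, and binding was not measured.

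The genes lie in clusters. Serpina3f (ENSMUSG00000066363.12) is at chr12:104214544-104221129 on the plus strand, with 2290 exonic bases. The other 3 lie within chromosome 13. Serpinb6b (ENSMUSG00000042842.11) is at chr13:32965209-32979067 and Serpinb9 (ENSMUSG00000045827.10) at chr13:33003250-33017957, both on the plus strand, with 2262 and 3494 exonic bases. Serpinb6a (ENSMUSG00000060147.15) is at chr13:33917918-34002794 on the minus strand, with 5409 exonic bases. Coordinates are of GRCm38 with GENCODE vM21.

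The coding sequences, taken as the longest open reading frame, were 86.2% identical between Serpinb6b and Serpinb6a, which are close paralogues, 67.8% identical between Serpinb9 and Serpinb6a, and 66.8% between Serpinb9 and Serpinb6b. Near-identical copies can share reads. Of the 50-base words in the Serpina3f transcripts, 10.6% also occur in another gene, most often Serpina3g (6.03%), and of its 100-base words 3.397% do. The share at 50 bases was 2.92% for Serpinb6b and 0.378% for Serpinb9, and at 100 bases it was 0 for both. Serpinb6a has another overlap: 1587 of its 5409 exonic bases (29.3%) are also exonic in 1110046J04Rik, Nqo2 or Ripk1 on the opposite strand, and since the strand setting of the counting is not given in the sources used here, reads from these genes cannot be told apart there.

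Serpina3f, the clade A member, was close to silent in Mock and was the most abundant of the 4 in both polarized groups. Its levels were 56.2, 56.6 and 56.1 FPKM in I libraries, 149.1, 149.3 and 149.3 FPKM in M1 libraries, and 0.171, 0.125 and 0.151 FPKM in Mock libraries. The 3 groups were far apart and the libraries of each lay close together. In I and M1 they lay closer than counting error on the fragments alone would usually give, so the SD there understates the error. The fragments behind these values numbered 2381 to 2728 in I and 6075 to 7474 in M1, against 10, 5 and 7 in Mock.

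Serpinb6a, the mouse counterpart of human SERPINB6, an inhibitor of cathepsin G, was the most abundant clade B member in every group. Its levels were 33.9, 33.0 and 33.8 FPKM in I libraries, 37.4, 35.9 and 36.04 FPKM in M1 libraries, and 18.2, 19.8 and 17.5 FPKM in Mock libraries. Every polarized library, with or without iodide, was above every Mock library, and the lowest M1 library was above the highest I library.

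Serpinb6b, known in mouse as an inhibitor of granzyme A, had 10.7, 9.84 and 11.1 FPKM in I libraries, 9.51, 8.23 and 9.73 FPKM in M1 libraries, and 6.87, 6.90 and 6.05 FPKM in Mock libraries. The groups did not overlap, but I replicate 2, at 9.84 FPKM, was only just above M1 replicate 3, at 9.73 FPKM. The fragments behind these values numbered 409 to 511 in I, 391 to 428 in M1 and 272 to 396 in Mock.

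Serpinb9, the mouse inhibitor of granzyme B also called SPI6, had 11.9, 11.8 and 11.8 FPKM in I libraries, 8.73, 8.63 and 9.07 FPKM in M1 libraries, and 7.26, 6.83 and 6.91 FPKM in Mock libraries. Its groups did not overlap, with I highest and Mock lowest. The fragments behind them numbered 758 to 878 in I, 563 to 659 in M1 and 416 to 646 in Mock. The I libraries lay closer together than counting error alone would usually give.

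**Figure D1:**
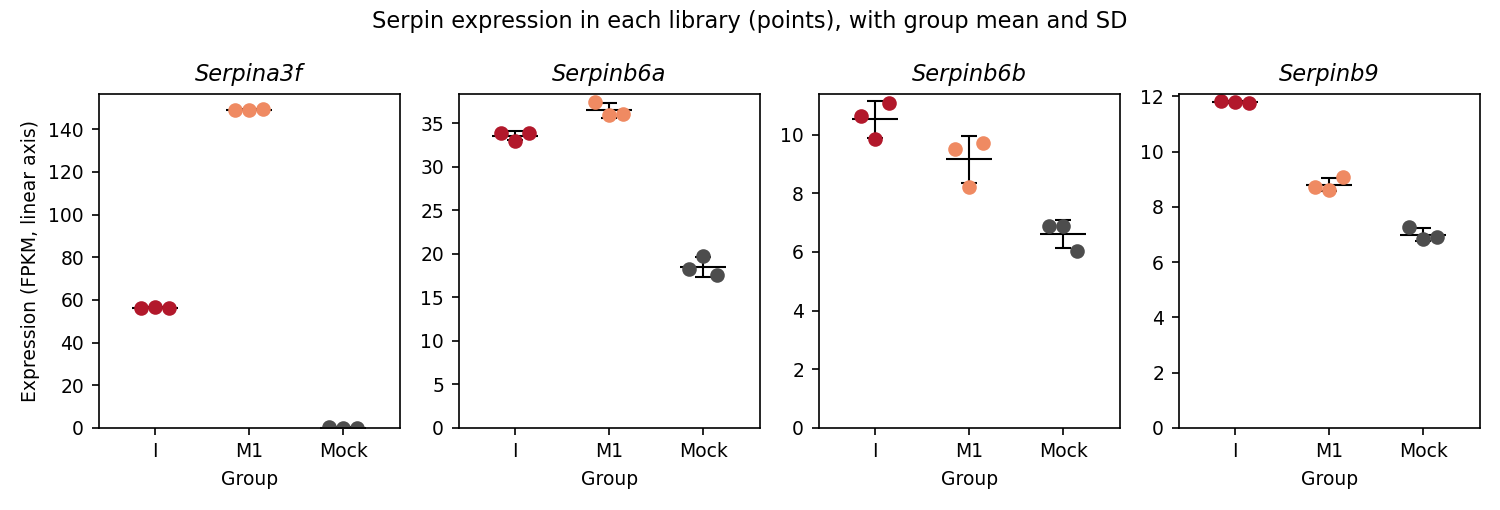
FPKM of each serpin in every library (points, linear axis from 0) for I, M1 and Mock, with the group mean and SD as bars. Serpina3f is highest in M1 at about 149 FPKM and near 0 in Mock, while Serpinb9 and Serpinb6b are highest in I and lowest in Mock.

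Polarization without iodide, M1 against Mock, asks which of these inhibitors LPS and interferon gamma raise. All 4 rose, and by very unequal amounts. The list is one of intracellular serpins induced in macrophages, drawn up with earlier results of these data known. That all 4 rose may follow from this choice. The comparison used limma on log2(FPKM + 1) over 11156 rows, and a row was called where the p adjusted by the Benjamini-Hochberg method was under 0.05. Of all rows, 85.8% were called, 30.5% as higher and 55.3% as lower, so a call by itself is common here. The 4 serpins were also higher in every M1 library than in any Mock library, which held for 30.7% of all rows, and 55.6% were separated the other way.

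Serpina3f averaged 149 ± 0.116 FPKM in M1 and 0.149 ± 0.0232 FPKM in Mock (SD, n = 3 each). The log2 fold change in limma was 7.03 (SE 0.0269, adjusted p = 2.02e-17), the third highest of 11156 rows. Genes without a fragment in some library have no row, so they are outside this and the later rankings. The ratio of means was 998.9, and the pooled fragments, 20343 in M1 against 22 in Mock, gave a fold of 979.9 with an exact 95% interval of 647 to 1564. That interval covers counting error only. The log2 value and its SE depend on the constant added to FPKM: they were 9.23 and 0.0570 with 0.1 in place of 1. On recovered fragments, limma-voom gave 9.86 with an SE of 0.282.

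The clade B members rose less. Serpinb6a averaged 36.5 ± 0.817 FPKM in M1 and 18.5 ± 1.16 FPKM in Mock (SD, n = 3 each), a ratio of 1.97. Its log2 fold change in limma was 0.94 (SE 0.0405, adjusted p = 1.40e-09). Serpinb6b averaged 9.16 ± 0.811 FPKM in M1 and 6.61 ± 0.485 FPKM in Mock (SD, n = 3 each), with a log2 fold change of 0.42 (SE 0.0683, limma adjusted p = 0.000149). For Serpinb9, the averages were 8.81 ± 0.232 FPKM in M1 and 6.998 ± 0.229 FPKM in Mock (SD, n = 3 each), with a log2 fold change of 0.29 (SE 0.0361, limma adjusted p = 1.34e-05). The 3 fold changes ranked 820th, 2143rd and 2657th from the highest.

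The median of all rows moved as well, by −0.23 on the log2 scale. Relative to it the changes in M1 were 7.26 for Serpina3f, 1.18 for Serpinb6a, 0.65 for Serpinb6b and 0.53 for Serpinb9. Median-of-ratios scaling, which brings the median of all rows to 0.02, gave 0.69 for Serpinb6b and 0.57 for Serpinb9, and quantile scaling gave 0.72 and 0.59. Under median-of-ratios scaling the calls over all rows were split into 4870 higher and 4693 lower, in place of 3405 higher and 6166 lower.

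Polarization with iodide against polarization alone, I against M1, asks what the salt changed. Here the 4 serpins went different ways: Serpina3f fell to 0.377 of its M1 level, Serpinb9 rose to 1.34 times its M1 level, and the closely related pair Serpinb6a and Serpinb6b made small changes in opposite directions. Of all rows 64.2% were called in limma, 24.9% as higher and 39.3% as lower. That is 2775 higher and 4382 lower, where median-of-ratios scaling gave 3396 and 3631 and quantile scaling 3364 and 3610. Serpinb9 and Serpinb6b were called higher and Serpina3f and Serpinb6a lower, but the calls of Serpinb6b and Serpinb6a were lost under some alternatives, given below. The same split held library by library without overlap, as it did for 26.4% of all rows in the higher direction and 40.8% in the lower direction.

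Serpina3f averaged 56.3 ± 0.27 FPKM in I and 149 ± 0.116 FPKM in M1 (SD, n = 3 each), a ratio of 0.377. The log2 fold change was −1.39 (SE 0.0269, limma adjusted p = 4.82e-11), the 28th lowest of 11156 rows. The pooled fragments, 7580 in I against 20343 in M1, gave a fold of 0.377 with an exact 95% interval of 0.367 to 0.387. This interval, too, covers counting error only.

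Serpinb9 averaged 11.8 ± 0.0419 FPKM in I and 8.81 ± 0.232 FPKM in M1 (SD, n = 3 each), a ratio of 1.34. Its log2 fold change was 0.39 (SE 0.0361, limma adjusted p = 5.19e-06), the 953rd highest.

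Serpinb6b averaged 10.5 ± 0.627 FPKM in I and 9.16 ± 0.811 FPKM in M1 (SD, n = 3 each), a ratio of 1.15 and a log2 fold change of 0.18 (SE 0.0683, limma adjusted p = 0.0353). The call was lost without I replicate 1 (0.18, limma adjusted p = 0.0833), without I replicate 3 (0.15, adjusted p = 0.118) and without M1 replicate 2 (0.12, adjusted p = 0.141). Serpinb6a averaged 33.6 ± 0.507 FPKM in I and 36.5 ± 0.817 FPKM in M1 (SD, n = 3 each), a ratio of 0.920 and a log2 fold change of −0.12 (SE 0.0405, limma adjusted p = 0.0272). That call was lost without I replicate 2 (−0.10, limma adjusted p = 0.0800), without M1 replicate 1 (−0.10, adjusted p = 0.0861), with median-of-ratios scaling (−0.05, adjusted p = 0.291) and with quantile scaling (−0.05, adjusted p = 0.310). Against the median of all rows, which was −0.07 in this comparison, the change of Serpinb6a was −0.05.

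The ratio of Serpinb6b to Serpinb6a within a library does not change with a factor that scales the whole library. Serpinb6b stood at 0.315, 0.298 and 0.327 of the Serpinb6a level in I, at 0.254, 0.229 and 0.270 in M1, and at 0.378, 0.349 and 0.345 in Mock. The 3 groups did not overlap, with M1 lowest and Mock highest. On the log2 scale the mean ratio was −1.67 ± 0.0667 in I, −2.00 ± 0.121 in M1 and −1.49 ± 0.0708 in Mock (SD, n = 3 each). I minus M1 was 0.32, M1 minus Mock was −0.51 and I minus Mock was −0.19. The exact two-sided permutation p was 0.1 for each of the 3 differences, the smallest that 3 libraries against 3 allow.

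**Figure D2:**
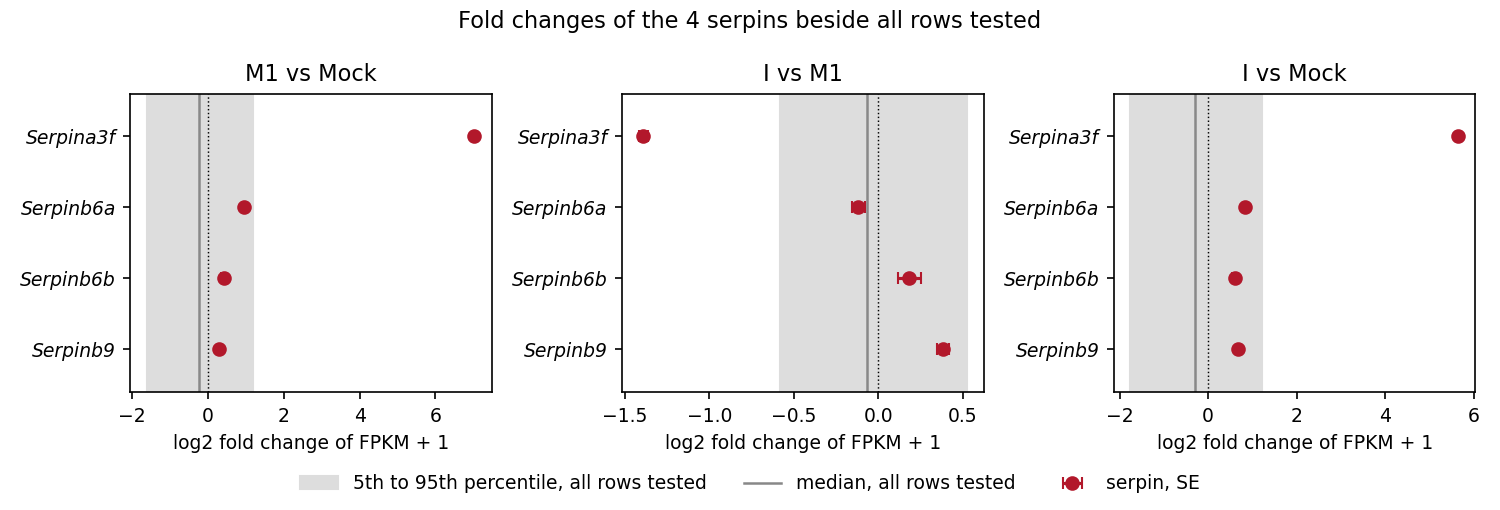
Log2 fold change of FPKM + 1 for each serpin (points, SE bars) in the comparisons of M1 with Mock, I with M1 and I with Mock, beside the 5th to 95th percentile (band) and median (line) of all rows tested. Serpina3f lies outside the band in all 3 comparisons, at 7.03, −1.39 and 5.64, and the 3 clade B serpins lie inside it.

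Polarization with iodide against no polarization, I against Mock, shares the I libraries with the comparison above and the Mock libraries with the first. All 4 serpins were called higher in limma, beside 28.2% of all rows called higher, 58.6% called lower and 86.8% called in all. The 4 were also higher in every I library than in any Mock library, which held for 28.5% of all rows, with 58.6% separated the other way. As in M1 against Mock, this may follow from the choice of the list.

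The log2 fold change of Serpina3f in I was 5.64 (SE 0.0269, limma adjusted p = 8.33e-17), the 12th highest of all rows, and the ratio of means was 376.8. For Serpinb6a it was 0.83 (SE 0.0405, limma adjusted p = 3.89e-09), a ratio of 1.81. Serpinb9 followed with 0.68 (SE 0.0361, limma adjusted p = 8.02e-09), a ratio of 1.69, and Serpinb6b with 0.60 (SE 0.0683, limma adjusted p = 6.79e-06), a ratio of 1.59. Relative to the median of all rows, −0.30 here, the changes were 5.94 for Serpina3f, 1.13 for Serpinb6a, 0.98 for Serpinb9 and 0.90 for Serpinb6b. Median-of-ratios scaling gave 0.94 for Serpinb6b and 1.02 for Serpinb9, with 4783 rows called higher and 4766 lower in place of 3146 and 6534, and quantile scaling gave 0.94 and 1.02.

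Set against the gain in FPKM over Mock that polarization alone gave, the gain in I was 37.7% for Serpina3f, 83.9% for Serpinb6a, 153.7% for Serpinb6b and 265.8% for Serpinb9. The 2 gains share the Mock libraries, so these shares are a description. Those of Serpinb9 and Serpinb6b divide by small gains, 8.81 over 6.998 FPKM and 9.16 over 6.61 FPKM in M1 over Mock. No spread was computed for the shares, and they were not recomputed under the other scalings, which changed the fold changes.

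The make-up of the 4 serpins differed between the groups. Their summed level was 112 ± 0.84 FPKM in I, 204 ± 1.41 FPKM in M1 and 32.3 ± 1.52 FPKM in Mock (SD, n = 3 each). Serpina3f made up 50.2% of the sum in I, 73.3% in M1 and 0.465% in Mock. Serpinb6a made up 29.9% in I, 17.9% in M1 and 57.3% in Mock. A share also depends on the other members. That of Serpinb6a was higher in I than in M1 although its level was lower, at 33.6 against 36.5 FPKM. Serpinb9 held 10.5% in I, 4.33% in M1 and 21.7% in Mock, and Serpinb6b held 9.38%, 4.49% and 20.5% in the same groups.

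The rows most like each serpin were named by the root mean square difference of log2(FPKM + 1), each row taken relative to its own Mock mean, over 9 libraries and among 5390 tested rows that reach a mean of 10 FPKM in some group. For Serpina3f the nearest were Upp1, a uridine phosphorylase, at 0.601, Ptgs2, the inducible cyclooxygenase, at 0.709, and Nos2, the inducible nitric oxide synthase, at 0.784. In I against M1 their log2 fold changes were −0.65, 0.24 and 0.52, so of the 3 Upp1 changed in the same direction as Serpina3f. The clade B members had much closer rows: Riok3, Diaph1 and Il2rg for Serpinb6a (0.0488 to 0.0527), Gxylt1, Khdc4 and Slc30a9 for Serpinb6b (0.0748 to 0.0764), and Dap, Ripk3 and Ppp1r15a for Serpinb9 (0.0523 to 0.0548). Among the serpins themselves the nearest pair was Serpinb6b and Serpinb9, at 0.111. Serpinb6a was 0.338 from Serpinb6b, and Serpina3f was between 4.48 and 4.83 from each of the others.

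Other serpin rows were read beside the 4. Serpini1, neuroserpin, an inhibitor of tissue plasminogen activator, averaged 4.07 ± 0.146 FPKM in I, 0.831 ± 0.0695 FPKM in M1 and 0.117 ± 0.0317 FPKM in Mock (SD, n = 3 each), and rose in I against M1 by 1.47 on the log2 scale (limma adjusted p = 4.44e-09). The tested clade B rows off the list were lower in M1 than in Mock. Serpinb8 had means of 1.71, 1.65 and 8.38 FPKM and Serpinb1c of 0.972, 0.978 and 3.86 FPKM in I, M1 and Mock. In M1 against Mock their log2 fold changes were −1.83 and −1.29 (limma adjusted p = 1.04e-10 and 1.05e-08), while in I against M1 they were 0.03 and −0.01 (adjusted p = 0.670 and 0.949). Serpinf1, also called PEDF, had 0.657, 1.24 and 1.98 FPKM in the same order and fell in both comparisons, by 0.41 in M1 against Mock and by 0.44 in I against M1. Serpinb1b, Serpinb9b and Serpinc1 were below the filter.

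**Figure D3:**
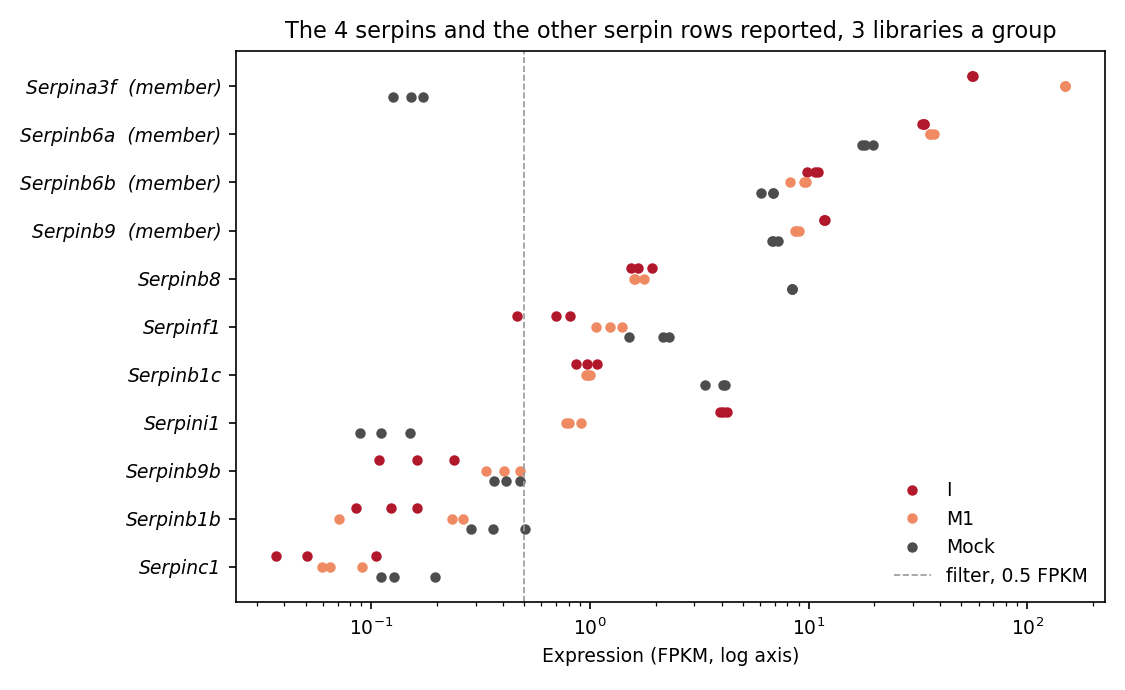
FPKM of the 4 serpins and of the other serpin rows reported, in every library (points, log axis), by group, with the filter of 0.5 FPKM as a dashed line. Serpina3f has the widest gap between the polarized groups and Mock among the rows shown, whereas Serpinb8 and Serpinb1c lie highest in Mock.

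The proteases that serpins of this kind are known to meet were read from a list of 28 genes, of which 22 have a row and 21 were tested. In M1 against Mock 14 were called higher and 5 lower, with a median log2 fold change of 0.54 beside −0.23 over all rows. In I against M1 6 were called higher and 9 lower, with a median of −0.02 beside −0.07 over all rows. The shares of all rows called higher and lower were 30.5% and 55.3% in M1 against Mock. They were 24.9% and 39.3% in I against M1, so the protease counts in I against M1 are near those of all rows. The granzyme genes Gzma and Gzmb, the targets named above for Serpinb6b and Serpinb9, and Ctsg, that of human SERPINB6, have no row and are not analysed here.

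The lysosomal cathepsins Ctsb and Ctsd were highest in M1, as Serpina3f was. Ctsb had 660 FPKM in I, 833 FPKM in M1 and 410 FPKM in Mock, a log2 fold change of −0.34 in I against M1 (limma adjusted p = 5.25e-07). Ctsd had 479 FPKM in I, 800 FPKM in M1 and 252 FPKM in Mock, a change of −0.74 (adjusted p = 5.14e-09). Lgmn, the lysosomal asparagine endopeptidase legumain, and Ctsh, a cathepsin that trims amino termini, were highest in I. Lgmn had 365 FPKM in I, 273 FPKM in M1 and 134 FPKM in Mock, with 0.42 in I against M1 (adjusted p = 9.35e-08), and Ctsh had 3.59, 1.15 and 1.05 FPKM, with 1.09 (adjusted p = 4.47e-08). Casp1, the inflammasome caspase, was lower in I, at 24.0 FPKM, than in M1, at 41.8 FPKM (adjusted p = 4.82e-08), and had 28.4 FPKM in Mock.

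Of 24 protease inhibitors of other families, 12 have a row and 11 were tested. In M1 against Mock 7 were called higher and 4 lower (median 0.39), and in I against M1 1 was called higher and 6 lower (median −0.25). Of all rows 30.5% were called higher and 55.3% lower in M1 against Mock (median −0.23). The all-row shares in I against M1 were 24.9% and 39.3% (median −0.07). Slpi, a secreted inhibitor of neutrophil elastase, had 36.5 FPKM in I, 112 FPKM in M1 and 4.80 FPKM in Mock. Its log2 fold changes, 4.29 in M1 against Mock and −1.59 in I against M1 (limma adjusted p = 1.99e-12 and 4.91e-08), had the same signs as those of Serpina3f. Cstb, the cytosolic cystatin B, had 330 FPKM in I, 493 FPKM in M1 and 171 FPKM in Mock, and Cst7, cystatin F, had 3.38, 8.13 and 10.4 FPKM in that order.

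Genes known to be induced by interferon gamma numbered 18, and 17 were tested. In M1 against Mock 12 were called higher and 5 lower (median 1.04), beside 30.5% higher and 55.3% lower over all rows (median −0.23). In I against M1 3 were called higher and 11 lower (median −0.16), beside 24.9% and 39.3% over all rows (median −0.07). Irf8, a macrophage transcription factor, had 244 FPKM in I, 269 FPKM in M1 and 31.4 FPKM in Mock. Cd274, the checkpoint ligand PD-L1, had 46.7 FPKM in I, 70.7 FPKM in M1 and 4.62 FPKM in Mock, and Gbp5, an interferon-induced GTPase, had 16.3 FPKM, 27.9 FPKM and 3.15 FPKM. Their log2 fold changes in I against M1, −0.14 for Irf8, −0.59 for Cd274 and −0.74 for Gbp5, were each smaller in size than the −1.39 of Serpina3f; that difference was not tested. Igtp, an immunity-related GTPase, went the other way in both comparisons: it had 83.3 FPKM in I, 56.0 FPKM in M1 and 67.6 FPKM in Mock, with log2 fold changes of −0.27 in M1 against Mock and 0.57 in I against M1 (limma adjusted p = 1.25e-05 and 1.29e-07).

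All 15 NF-kB feedback and target genes listed were tested. In M1 against Mock 12 were called higher and 2 lower (median 0.85), beside 30.5% higher and 55.3% lower over all rows (median −0.23). In I against M1 5 were called higher and 8 lower (median −0.10), beside 24.9% and 39.3% over all rows (median −0.07). Nfkbia, the inhibitor that NF-kB itself induces, had 438 FPKM in I, 477 FPKM in M1 and 75.3 FPKM in Mock. Nfkbiz, a nuclear cofactor of NF-kB, had 116 FPKM in I, 79.2 FPKM in M1 and 14.9 FPKM in Mock, higher in I than in M1 (log2 fold change 0.54, limma adjusted p = 7.14e-08), as Serpinb9 was. Nfkb2, the precursor of the p52 subunit, had 17.0, 31.3 and 20.4 FPKM in I, M1 and Mock.

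**Figure D4:**
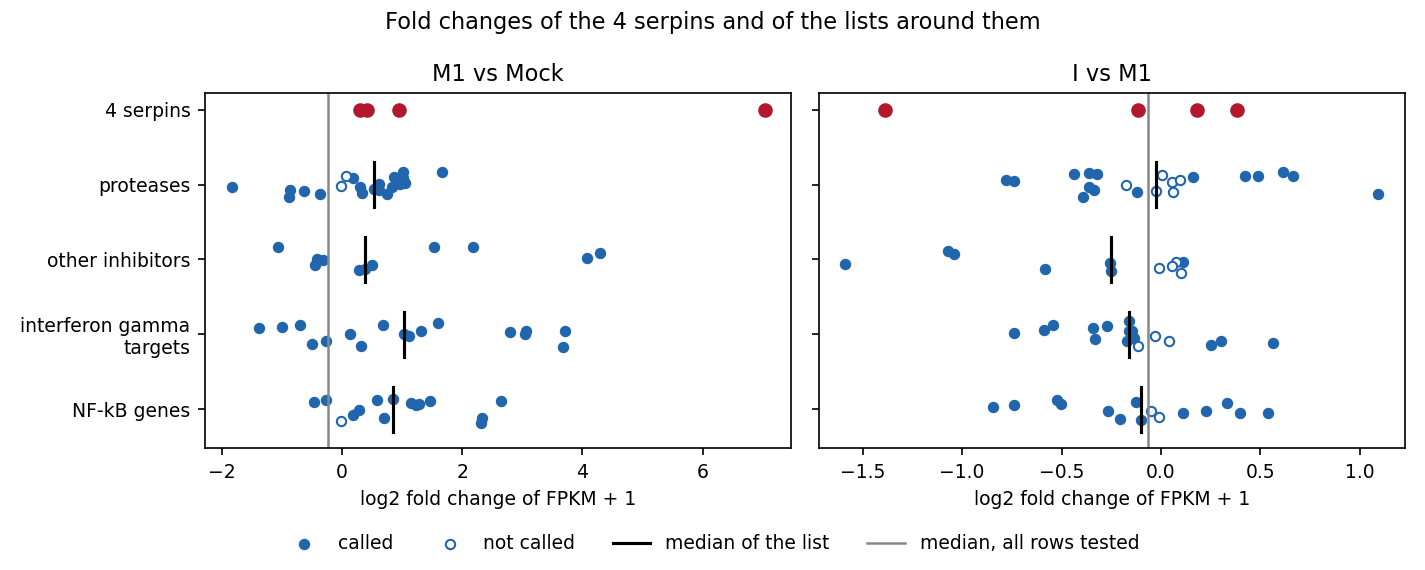
Log2 fold change of FPKM + 1 for the 4 serpins and for the genes of the 4 lists (filled: called, open: not called) in M1 vs Mock and I vs M1, with each list's median and that of all rows. In I vs M1 the 4 serpins spread from −1.39 to 0.39, and Slpi, at −1.59, is the lowest point among the inhibitors of other families.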

How the data were processed

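The authors deposited FPKM, fragments scaled to gene length and to the library total. This unit is inferred from the numbers, since the file headers do not name it. The submitters' processing notes name the genome GRCm38 and the tools fastp 0.20.1, HISAT2 2.2.1 and featureCounts 2.0.1 (Subread). How these were set, with which annotation and strand option, is not given in the sources used here.

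Members and gene lists were chosen with earlier results of these data known. FPKM times the exon length of GENCODE vM21, matched for 12204 of 12474 rows (97.8%), gave whole fragments within 0.05 in 98.4% to 98.6% of values, from which library totals and the members' fragments were taken. The intervals computed from pooled fragments cover counting error only and leave out variation between libraries. One limma 3.58.1 model (R 4.3.3) with an intensity trend was fitted to log2(FPKM + 1) of all 9 libraries for the 11156 rows with at least 0.5 FPKM in at least 3 libraries; 1318 rows were below this. The contrasts set M1 against Mock, I against M1 and I against Mock, with Benjamini-Hochberg adjustment over all rows tested and calls under 0.05. Fold changes on this scale understate the change of low genes. Ratios printed are ratios of mean FPKM.

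Named beside the members are every tested serpin row but 1, which is not reported here, from each list part of the up to 3 genes with the smallest p in M1 vs Mock and in I vs M1, and the 3 rows most like each member; which of the list genes to print was decided after their values were seen. Alternatives were other pseudocounts, filters and scalings, limma-voom on recovered fragments, a fit of only the groups compared, no intensity trend, the replicate number as a block, and leaving out each library. Sequence windows are from RefSeq (GRCm38.p6), read with Python 3.11.15, and all members with a row matched.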

Additional observations from a re-analysis of the deposited data

How the results depend on the processing

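The 12 log2 fold changes of the serpins kept their sign under every alternative tried. They also kept their side of the threshold in 106 of 108 values under other settings and in 103 of 108 with 1 library left out. The exceptions were all in I against M1. Serpinb6a had −0.0506 with median-of-ratios and −0.0531 with quantile scaling, and −0.126 to −0.0981 leaving out single libraries. Serpinb6b had 0.117 to 0.227 leaving out single libraries. The serpins called lower numbered 1 with either scaling in place of 2, and 1 to 2 leaving out single libraries, and those called higher 1 to 2. The cause was not tested. The replicate block changed no call: with it the limma adjusted p was 0.0404 for Serpinb6a and 0.0419 for Serpinb6b in I against M1. Deviations of same-numbered libraries correlated at −0.115 to 0.0474, not every library correlated best with its own number, and nothing in the labels says that a number marks a shared culture or day. In I against M1 the calls over all rows were 2713 higher and 4319 lower with the block, against 2775 and 4382 without it. The planned ratio of Serpina3f to Serpina3g was not run, as Serpina3g has no row. Depth limits Serpina3f in Mock most, at 5 to 10 fragments a library. On fragments, limma-voom gave it a log2 fold change of 9.86 (SE 0.282) in M1 against Mock and 8.45 (SE 0.282) in I against Mock.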

Other observations

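Within 500 kb of the clade B members on chromosome 13 lie 26 protein-coding genes, these members included, of which 14 have a row, and 15 of the 26 are serpins, of which 6 have a row. Of the 9 tested genes there that are not members, 1 of which is a non-coding antisense gene, 3 were called higher and 5 lower in M1 against Mock, and 1 higher and 4 lower in I against M1. Over all rows 30.5% were called higher and 55.3% lower in M1 against Mock. In I against M1 the all-row shares were 24.9% and 39.3%, so these counts are near the shares of all rows. Tubb2a, a beta tubulin gene, averaged 9.74 FPKM in I, 20.99 FPKM in M1 and 6.05 FPKM in Mock, and Bphl, a serine hydrolase gene, 2.06, 4.29 and 5.01 FPKM in the same groups. Nqo2, a quinone reductase gene whose exons overlap those of Serpinb6a, averaged 4.51 FPKM in I, 6.49 FPKM in M1 and 8.15 FPKM in Mock, and Ripk1, a kinase gene of cell death signalling, 6.59, 5.88 and 8.79 FPKM. The antisense gene 1110046J04Rik, whose exons also overlap those of Serpinb6a, went the other way in M1 against Mock. It averaged 0.719 FPKM in I, 0.734 FPKM in M1 and 0.227 FPKM in Mock. Tubb2a and Bphl were picked after their values were seen. Around Serpina3f on chromosome 12, 19 of 21 protein-coding genes within 500 kb are serpins, and only Serpina3f among them has a row.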
